A study of Danio rerio with 24 samples.

Results

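The eggs of mothers 2 and 3 were set against those of mothers 1, 4 and 5, and the transcripts in which the pair stood apart from the other clutches were described. A transcript counted as apart when every one of the 10 eggs of mothers 2 and 3 lay above, or every one lay below, all 14 eggs of mothers 1, 4 and 5 on the deposited normalized log2 scale. Out of 26630 expressed transcripts 847 (3.18%) met this, 473 (1.78%) with higher and 374 (1.40%) with lower levels in clutches 2 and 3. The same measured values chose these transcripts, so their levels in this comparison are a description and carry no test.

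The samples were single mature, unfertilized zebrafish eggs obtained by squeezing wild-type ABTL females, without fertilization or treatment. There were 5 eggs from each mother, except for mother 5 with 4, and the 5 mothers were sisters. RNA of each egg was polyadenylated, depleted of ribosomal RNA, amplified and hybridized in Cy3 on a two-colour array, with a reference pooled from eggs in Cy5. Each mother is represented by 1 clutch, so mother and clutch cannot be told apart, and tests over eggs measure the spread between eggs of a clutch and not the spread between mothers (2 against 3). With 5 mothers there are 10 ways to pick 2, so an exact permutation test over mothers cannot go below p = 0.1.

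A mature egg carries RNA that the mother deposited during oogenesis, when the oocyte is transcriptionally active. This maternal RNA directs the first divisions, until the genome of the embryo takes over and maternal transcripts are cleared. Products stored in the egg therefore include parts of the egg coat, of the cell cycle and translation machinery, and regulators of early patterning.

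The arrays of the 2 groups overlapped in overall signal. The mean raw log2 Cy3 signal over the expressed transcripts ran from 7.71 to 9.80, with a median of 8.53, in the eggs of mothers 2 and 3, and from 7.64 to 9.56, with a median of 8.80, in those of mothers 1, 4 and 5. Between 19678 and 25286 probes were called present per egg in the first group and between 18897 and 24915 in the second. All 14 egg and oocyte markers were expressed, while the blood markers hbae1 and hbae3 were not. The summed level of the egg markers ran from 15.73 to 16.32 in clutches 2 and 3 and from 15.56 to 16.28 in the others, and the summed level of the follicle markers ran from 11.06 to 11.93 and from 11.14 to 12.34. The sums of the gut and pancreas markers (10.49 to 10.96 against 10.09 to 10.64) and of the nerve and eye markers (12.14 to 12.95 against 11.93 to 12.34) overlapped but reached higher in clutches 2 and 3. Their part in the results was not tested. Quantile normalization makes all levels relative, so the amount of RNA per egg was not compared.

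Most of the separations were small. The gap, which is the distance between the lowest egg of the higher group and the highest egg of the lower group, was 0.19 in log2 units at the median and reached at least 0.25 in 339 of the 847 transcripts. It reached at least 0.5 in 162 and at least 1 in 56, of which 41 were higher and 15 lower in clutches 2 and 3. The 10 transcripts just inside the limit had gaps of at most 0.0037, and the ranges of the 10 just outside it touched or overlapped by at most 0.0018. The difference of the clutch means between the groups had a median size of 0.92 among the 847 transcripts, against 0.17 over all expressed transcripts. It exceeded 2-fold in 356 of the 847 and 4-fold in 78, against 650 and 97 of all expressed transcripts.

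**Figure D1:**
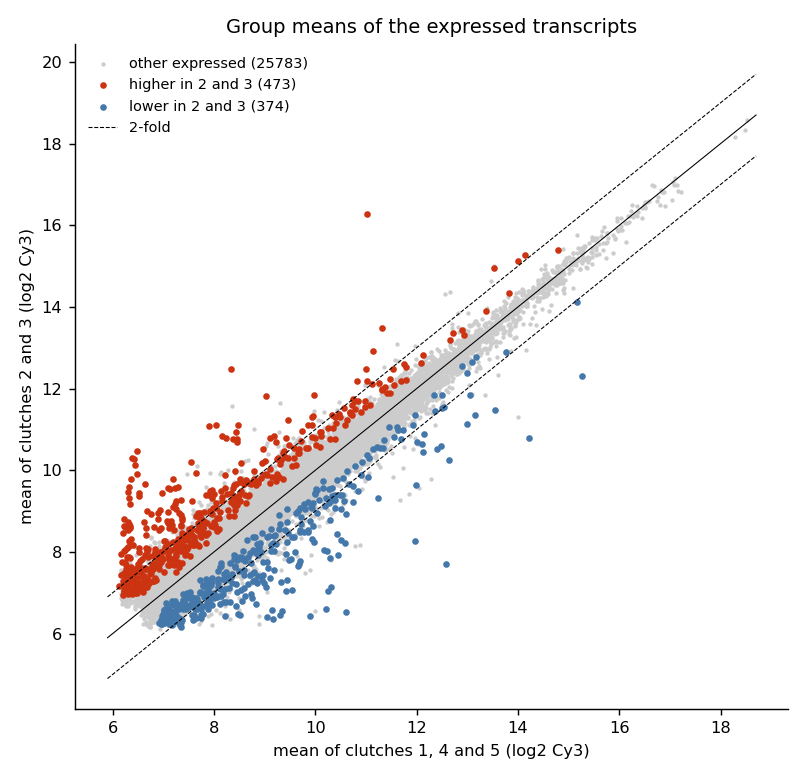
Mean normalized log2 Cy3 signal of clutches 2 and 3 against that of clutches 1, 4 and 5, one point per expressed transcript, with the solid line at equal levels and dashed lines at 2-fold. The 473 transcripts higher in clutches 2 and 3 (red) and the 374 lower ones (blue) lie on either side of the other expressed transcripts (grey), and some of them near the lowest signals of one axis.

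By the same rule, clutches 1 and 5 stood apart from the other 3 in 240 transcripts (106 higher and 134 lower), and clutches 4 and 5 in 289 (157 higher and 132 lower). The remaining pairs of clutches were not counted, so the rank of clutches 2 and 3 among all pairs is not known. The linear model with a mean per mother placed 42.3% of the expressed transcripts past an adjusted p of 0.05 for clutches 2 and 3 against the rest, 21.3% higher and 21.0% lower (limma, Benjamini-Hochberg). All 847 transcripts with separate ranges were among these, which the rule largely fixes. The model's count of 11275 became 2947 with mother as a random block and 1108 with the raw arrays centred on their median. The Cy5 reference at the same spots passed that threshold for 1 of the 26630 transcripts (0.00376%), which was 1 of the 847. At an unadjusted p under 0.05 it gave 369 (1.39%), of which 24 (2.83%) were among the 847, and the median size of its difference was 0.0346 in the 847 and 0.0333 in all.

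The tables of the study pair 381 of the 847 transcripts with an Ensembl gene, 211 higher and 170 lower, and 350 with a symbol. All 381 stand in the study's own table of mother-specific genes, which was made from these eggs, so the share of separate genes among paired probes is no independent measure. The remaining 466 transcripts were not named, and they hold wide gaps too, with the 10 widest between 2.49 and 3.59.

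The widest gap among paired genes that were higher in clutches 2 and 3 belonged to ENSDARG00000076822, which has no symbol in the tables. It ran from 9.77 to 11.11 against 6.14 to 7.16, with 3 of the 14 eggs of mothers 1, 4 and 5 well above background. The widest gaps among genes with a symbol belonged to c7b and rnaset2. For c7b, a zebrafish gene for complement component 7, a part of the pore that complement inserts into membranes, the 10 eggs of mothers 2 and 3 ran from 9.40 to 10.60 with a median of 9.81. The 14 other eggs ran from 6.18 to 7.20 with a median of 6.41, and only 4 of them were well above background. The gene lies at chr21:20864869-20878655 on the Zv9 assembly. The groups were 2.21 apart at their nearest eggs, and the clutch means differed by 3.42 ± 0.10 (SE) on the log2 scale. Even the highest of the 14, egg 4 of mother 5, lay far below the lowest of the 10.

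For rnaset2, an acid RNase of the lysosome, the 10 eggs ran from 9.98 to 10.48 with a median of 10.22, and the 14 others from 7.01 to 7.91 with a median of 7.57. This transcript was well above background in all 24 eggs, so the 6.31-fold difference (2.66 ± 0.08, SE) was measured on both sides. The spread within clutches was small, with standard deviations of 0.19 (mother 2) and 0.16 (mother 3, n = 5 each).

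The Ensembl gene ENSDARG00000040610, which the tables describe as similar to a cystine/glutamate transporter, ran from 8.41 to 9.06 in clutches 2 and 3. In the other clutches it ran from 6.13 to 6.43 and was well above background in none of the 14 eggs, so the difference was at least 5.32-fold. The bound sets the mean of the bright clutches against, for each dim array, the lowest signal among probes well above background, or the signal of the probe itself where that was higher.

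Of slc5a5, the sodium iodide symporter, the 10 eggs gave 8.47 to 9.64 with a median of 8.94, and the 14 others 6.31 to 6.94 with a median of 6.68, with 10 of the 14 well above background. For olfm1b, a secreted olfactomedin, the ranges were 8.27 to 9.23 and 6.10 to 6.43, with 1 of the 14 well above background. The lower group of both genes thus lay close to the background of the array.

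Genes matched by symbol to a list for cell cycle, replication and DNA repair were also among the widest gaps. Geminin (gmnn), which keeps replication origins from being licensed again within a cycle, ran from 10.48 to 11.24 (median 10.93) in clutches 2 and 3 and from 7.96 to 9.01 (median 8.45) in the others. It was well above background in all 24 eggs and differed 5.65-fold (2.50 ± 0.10, SE). Its position overlaps that of fam65b, which was also separate and higher (0.63). The kinase gene cdk5, which is best known from neurons, ran from 8.01 to 9.41 against 6.12 to 6.65, and just 1 of the 14 other eggs was well above background.

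The 12 widest gaps among named higher genes were completed by pttg1ipb, ndufb11, si:ch1073-109g21.1, napaa and mfsd4a, with gaps of 1.30, 1.22, 1.19, 1.13 and 1.01. The gene ndufb11, for a subunit of respiratory complex I, was well above background in none of the 14 eggs of mothers 1, 4 and 5 and was at least 4.63-fold higher in clutches 2 and 3. For pttg1ipb, which is named after its binding to securin, the bound was at least 4.64-fold. In napaa, an alpha-SNAP that helps to recycle the SNARE complexes of membrane fusion, all 24 eggs were well above background and the difference was 3.96-fold.

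**Figure D2:**
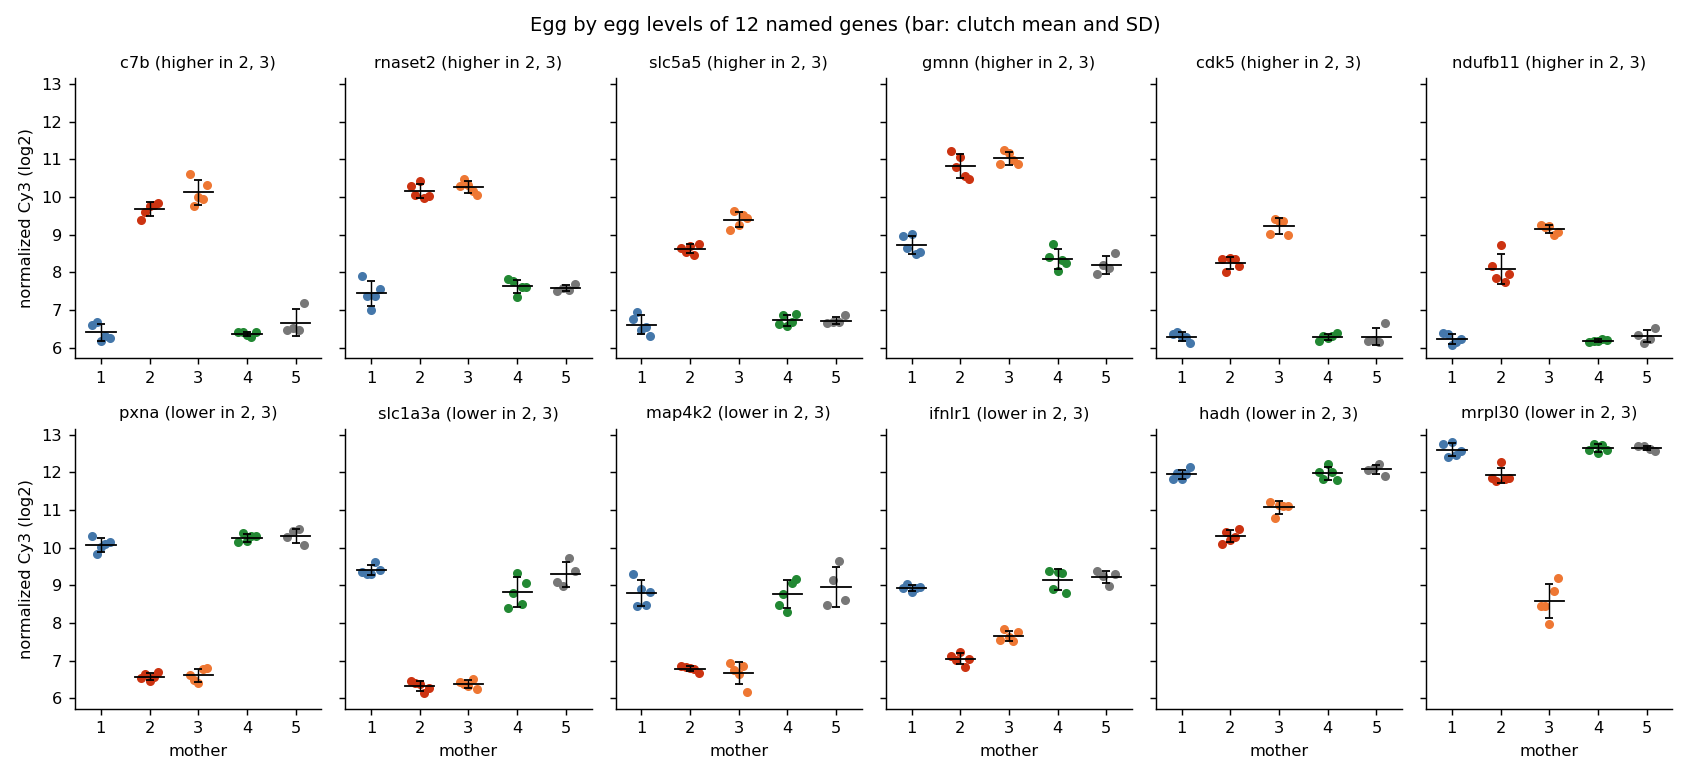
Normalized log2 Cy3 level of every egg by mother for 6 named genes higher (upper row) and 6 lower (lower row) in clutches 2 and 3, with bars for the clutch mean and standard deviation (n = 5, mother 5 n = 4). In c7b the eggs of mothers 2 and 3 lie between 9.40 and 10.60 and in pxna between 6.42 and 6.81, while in mrpl30 the eggs of mother 2 lie just under the 3 other clutches and those of mother 3 far below. The slc1a3a panel shows the Ensembl gene ENSDARG00000026248.

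Among the genes that were lower in clutches 2 and 3, the paxillin gene pxna, an adaptor of focal adhesions, had the widest gap. Its 10 eggs of mothers 2 and 3 ran from 6.42 to 6.81 with a median of 6.59, and 7 of them were well above background. The 14 others ran from 9.82 to 10.50 with a median of 10.23. The nearest eggs were 3.01 apart and the clutch means differed by -3.62 ± 0.07 (SE), or 12.3-fold. Mothers 2 and 3 differed little here, with clutch means of 6.58 ± 0.10 and 6.62 ± 0.17 (SD, n = 5 each).

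A pair of Ensembl genes that the tables both call slc1a3a, a sodium-dependent glutamate transporter, showed the same pattern. For ENSDARG00000026248, to which the reference table gives the symbol SLC1A7 of the same transporter family, the ranges were 6.13 to 6.51 in clutches 2 and 3 and 8.40 to 9.73 in the others. For ENSDARG00000026218 they were 6.28 to 6.81 and 8.53 to 9.87. In each, 1 of the 10 eggs of mothers 2 and 3 was well above background. Whether the probes read separate transcripts was not tested.

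The other genes with the widest gaps in this direction hold several signalling and membrane genes. The kinase gene map4k2 ran from 6.18 to 6.94 against 8.30 to 9.64, a 4.31-fold difference, with 8 of the 10 eggs of mothers 2 and 3 well above background. The interferon lambda receptor gene ifnlr1 ran from 6.84 to 7.84 against 8.80 to 9.39 (3.36-fold), and the phosphatase gene dusp22a from 7.05 to 7.71 against 8.57 to 9.34 (2.78-fold). In smox, for spermine oxidase, clutches 2 and 3 gave 7.53 to 8.17 and the others 8.95 to 10.41 (3.78-fold). The rest were mettl9, sgms2, tmem206 (PACC1 in the reference table), atp6v1e1b, rab42b and btr16, with gaps between 0.64 and 0.86.

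The genes of both directions were spread over most of the 17 gene lists. Of the 3323 expressed genes paired with a symbol, 198 (5.96%) were separate and higher and 152 (4.57%) separate and lower, and the linear model called 31.0% higher and 28.3% lower. No list is set against chance here, and the counts are given beside these shares.

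**Figure D3:**
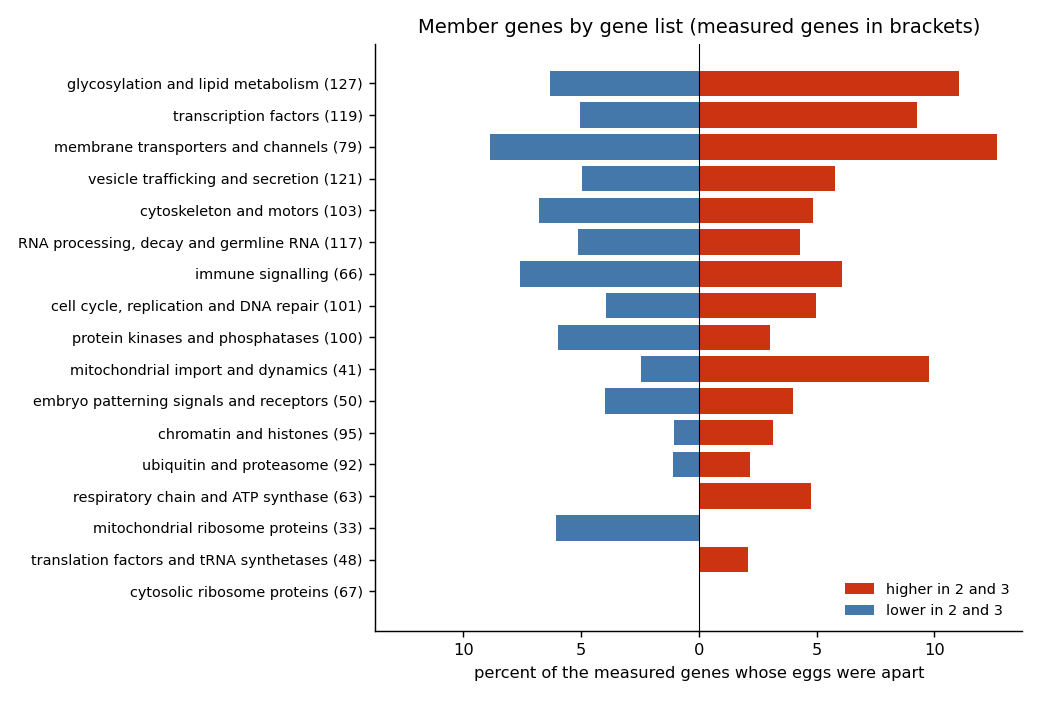
Percent of the measured genes of each list (number in brackets) whose eggs were apart, to the right where clutches 2 and 3 were higher and to the left where they were lower. Membrane transporters and channels had 10 higher and 7 lower genes of 79, and none of the 67 cytosolic ribosome proteins was apart.

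Membrane transporters and channels held 17 separate genes of 79 measured, 10 higher and 7 lower, and the model called 33 higher and 23 lower, with a median difference of 0.08 against 0.00 over all genes with a symbol. Beside slc5a5, mfsd4a and the slc1a3a pair, atp6v1e1b, a subunit of the vacuolar proton pump, was lower, at 9.05 to 9.50 against 10.18 to 11.01. The facilitated sugar transporter gene slc2a10 was lower (8.95 to 9.94 against 10.56 to 11.06), and the peptide transporter gene slc15a2 was at least 1.88-fold higher. The zinc transporter gene slc39a5 was 2.31-fold higher, with 8 of the 14 other eggs well above background. The separate genes of this list thus went both ways.

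Glycosylation and lipid metabolism had 22 separate genes of 127, 14 higher and 8 lower. The cytochrome P450 genes cyp2aa3 and cyp2aa9 were both higher, at least 2.92-fold and at least 2.20-fold, with none of the 14 other eggs well above background in either. The mitochondrial fatty acid oxidation genes parted, with hadh (2.49-fold) and hadhaa (1.57-fold) lower and hadhb (1.80-fold) higher in clutches 2 and 3. The sphingomyelin synthase gene sgms2 was lower, at 6.92 to 7.39 against 8.17 to 8.92. Of 5 measured st3gal sialyltransferase genes, st3gal1, st3gal2 and st3gal3b were separate and higher (in st3gal2 1 egg of mother 3 stood at 10.69, against a median of 7.65 over the 10 eggs), and st3gal3a was called lower by the model (1.20-fold, adjusted p = 0.00182). These families were picked after their values were seen.

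Transcription factors had 17 separate genes of 119, 11 higher and 6 lower. The 4 widest gaps belonged to creb3l3l (0.94), znfl2a (0.67), the orphan nuclear receptor gene nr4a1 (0.59) and the forkhead gene foxq1b (0.34), all higher in clutches 2 and 3. For creb3l3l, a membrane-bound CREB relative, the ranges were 8.05 to 9.82 and 6.61 to 7.11. Further members of the list were tfap2a (7.82 to 9.93 against 6.42 to 7.69) and the homeobox gene dlx6a (8.48 to 9.18 against 6.64 to 8.36), which were higher, and pax1b (6.92 to 8.29 against 8.32 to 9.12), klf7b (6.99 to 7.88 against 7.98 to 9.08) and sox8b (6.87 to 7.42 against 7.52 to 8.47), which were lower. The immune signalling list had 4 higher and 5 lower genes of 66. Of its tripartite motif genes btr18 was higher, at 9.85 to 11.38 against 7.51 to 9.25, and btr16 lower, at 6.70 to 8.25 against 8.89 to 9.88. The tables list other sequences that the btr16 probe may bind, and its family has close copies. The signalling adaptor gene traf6 and the autophagy receptor gene optn were higher, 2.56-fold and 3.48-fold, and the peptide transporter gene tap1, of antigen presentation, was 2.03-fold lower.

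Cell cycle, replication and DNA repair held 5 higher and 4 lower genes of 101, while the model called 23 higher and 30 lower. The synaptonemal complex gene sycp1, which pairs chromosomes in meiosis, was higher, at 7.96 to 9.40 against 6.24 to 7.44, with 7 of the 14 other eggs well above background. The damage recognition gene xpc was lower, at 6.36 to 6.76 against 7.34 to 8.12, with 4 of the 10 eggs of mothers 2 and 3 well above background. Cytoskeleton and motors held 5 higher and 7 lower genes of 103. The alpha tubulin gene tuba1b was lower (9.82 to 11.57 against 12.01 to 12.87) and tuba1c higher (7.71 to 8.63 against 6.27 to 7.31), while the profilin gene pfn1 was higher, at 12.36 to 13.45 against 10.43 to 11.90.

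The lists of RNA, trafficking and signalling genes showed separations of both signs as well. RNA processing, decay and germline RNA had 5 higher and 6 lower genes of 117. The deadenylase gene parn was higher, with 14.93 to 15.60 against 13.09 to 14.64, and rbms3 and the exoribonuclease gene eri1 were lower, 2.18-fold and 1.93-fold. The splicing factor gene sf3a1 was 1.96-fold higher. Vesicle trafficking and secretion had 7 higher and 6 lower of 121, where the Golgi tethering genes cog6 (3.15-fold) and cog4 (1.62-fold) were higher and rab42b lower (2.67-fold, with 6 of the 10 eggs well above background). Their partner cog5 was called higher by the model but overlapped between the groups, with 8.86 to 9.45 in clutches 2 and 3 and a median of 6.42 in the others, and cog3, the fourth measured member, was called lower (-0.18, adjusted p = 0.0334). The gene srpx (at least 1.74-fold higher) fell into this list by its spelling only, as it encodes a sushi-repeat protein.

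Protein kinases and phosphatases had 3 higher and 6 lower of 100, with sgk1 2.59-fold higher and the ribosomal S6 kinase gene rps6kb1b lower (difference of -1.20). Embryo patterning signals and receptors had 2 of each sign among 50, with spry2, an inhibitor of receptor tyrosine kinase signalling, and dtx2, a Notch pathway ligase, higher, and cnpy4 and sema3fb lower. Of these, spry2 had a difference of 1.62 but a gap of 0.03. Over the 50 genes the model called 10 higher and 22 lower, with a median difference of -0.12. Chromatin and histones had 3 higher and 1 lower of 95, while the model called 22 higher and 29 lower. The polycomb methyltransferase gene ezh2 (1.66-fold), brwd1 (2.13-fold, with 5 of the 14 other eggs well above background) and the remodeller gene smarca5 (1.44-fold) were higher, and the histone macroH2A gene h2afy was 2.89-fold lower. Ubiquitin and proteasome had 2 higher and 1 lower of 92. Among them rnf168, a ligase of the DNA damage response, had a gap of 0.80, while lrsam1 and fbxl2 had gaps of 0.01 and 0.03.

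In the lists of translation and mitochondrial genes, none of the 67 cytosolic ribosome proteins was apart, and the linear model called 7 of them higher and 8 lower. Of 48 translation factors and tRNA synthetases, gars (1.58-fold higher) was apart. Of 33 mitochondrial ribosome proteins, mrpl3 and mrpl30 were separate and lower, while the model called 9 of the 33 higher and 7 lower. Of 63 respiratory chain genes, ndufb11, sco2 and uqcrq were higher, with gaps of 1.22, 0.18 and 0.05. Mitochondrial import and dynamics had 4 higher genes and 1 lower gene of 41, with yme1l1a, slc25a25a and tomm7 higher by 1.82-fold, 1.44-fold and 1.47-fold and mief2 lower by 1.65-fold.

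Among the egg and oocyte markers, genes of the egg coat differed in both directions. The zona pellucida gene zp3.2 was separate and higher, at 14.27 to 15.43 against 12.46 to 14.13, a 2.68-fold difference. Its relative zp2l2 ran from 6.81 to 7.40 against 6.02 to 6.25, with none of the 14 other eggs well above background, so that it was at least 1.7-fold higher. The ranges of zp2.3 and zp2l1 overlapped, and the linear model called both lower in clutches 2 and 3, by 0.65 and 0.62 on the log2 scale (limma adjusted p = 4.45e-05 and 8.19e-06). Of the other coat genes, zp3a.1 was called higher (0.40), although its median was lower (9.27 against 9.52), and zpcx was not called. Outside the coat, the model called piwil1 higher (0.30) and npm2b lower (-0.53), with limma adjusted p = 0.00252 and 8.81e-07. It did not call npm2a, cpeb1b, nanos1 and tdrd5. The RNA-binding protein gene lin28a was separate and lower, at 8.74 to 9.10 against 9.15 to 10.05. The linker histone gene h1m, which is specific to the egg and early embryo, was called lower by the model by 1.25 (adjusted p = 3.29e-13), although its ranges of 8.22 to 11.13 and 9.74 to 11.86 overlapped.

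Markers of other cells lay on both sides. Of the 4 follicle and steroidogenic markers, hsd3b1 was separate and lower (6.12 to 7.72 against 7.75 to 8.42), cyp11a1 was called lower and lhcgr higher by the model (adjusted p = 0.00101 and 1.01e-09), and kitlga was not called (adjusted p = 0.146). The ranges of lhcgr overlapped (6.16 to 7.95 against 6.16 to 6.61), and it was called present on 5 arrays. Of the markers of skin, nerve and eye, tp63 was separate and lower and crygmx separate and higher, and krt8 and bsnb were called higher by the model (0.47 and 0.36). The ranges of krt8 overlapped (7.70 to 10.22 against 7.94 to 8.85), and cldng, gnat2, crygn1 and bdnf were not called. Of those of muscle and gut, the model called myoz1b lower (-0.72) and unc45b and try higher (0.49 and 0.39). It did not call mylpfb and pdx1. Whether cells other than the egg contributed was not tested.

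The rule does not fix how mothers 2 and 3 compare with each other, so this was tested. Among the 847 transcripts the pair differed in 286 (33.8%), with mother 2 higher in 133 and mother 3 higher in 153, against 29.7% of all expressed transcripts (13.6% and 16.1%) at the same limma adjusted p of 0.05. The median size of the difference was 0.19 on the log2 scale in the 847 and 0.21 in all. The median residual spread of the fit was 0.17 in the 847 and 0.19 in all. Of the 473 higher transcripts, 131 passed the expression filter only through eggs of mothers 2 and 3. The share in the 847 and that in all are therefore not on equal terms. Among the transcripts higher in the pair 35.5% differed between its clutches, and among the lower ones 31.6%. This order turned among transcripts present in all 24 eggs, with 29.4% of 201 higher and 34.6% of 153 lower ones. Of all 16614 such transcripts 28.6% differed. With the raw arrays centred on their median, 23 of the 847 were called, and over all expressed transcripts mother 2 was higher in 125 and lower in 436, in place of 3624 and 4298. In 39 of the 847 the called difference exceeded 2-fold, against 971 of the 26630 expressed transcripts. The arrays were scanned as 6 slides, each holding at most 1 egg of a mother, and on the 4 slides that hold eggs of both mothers, 273 to 284 of the 286 had the direction of the fit. The same eggs entered the fit that chose the 286, so this agreement was largely fixed beforehand and is no separate test.

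Some genes that stood apart as a pair were graded within it. In mrpl30, of the mitochondrial ribosome, mother 2 averaged 11.92 ± 0.21 and mother 3 8.58 ± 0.46 (SD, n = 5 each), so that mother 2 was 10.1-fold above mother 3 (limma adjusted p = 8.65e-15). The clutches of mothers 1, 4 and 5 averaged 12.60, 12.64 and 12.65, just above mother 2. The same order held in gdap2, picked after its values were seen, with 9.72 ± 0.11 in mother 2, 6.71 ± 0.32 in mother 3 and 10.48 to 10.66 in the rest. In h2afy the order within the pair was turned, with mother 2 at 8.50 ± 0.32 and mother 3 at 9.94 ± 0.10 (adjusted p = 3.52e-10).

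Among the genes higher in the pair, mother 3 exceeded mother 2 in creb3l3l (2.12-fold), ndufb11 (2.08-fold), cdk5 (1.97-fold), napaa (1.86-fold) and slc5a5 (1.71-fold). The reverse held in cog6 and si:ch1073-109g21.1, where mother 2 was higher by 0.87 and 0.80 on the log2 scale. No difference was detected between the clutches of the pair in rnaset2 (-0.10, adjusted p = 0.573), gmnn (-0.20, adjusted p = 0.336) and pxna (-0.04, adjusted p = 0.811). In all, 31 of the 66 named probes differed between mothers 2 and 3 (limma adjusted p under 0.05), against 29.7% of all expressed transcripts. The 66 were picked by their gaps in the same eggs, so this count is a description only.

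**Figure D4:**
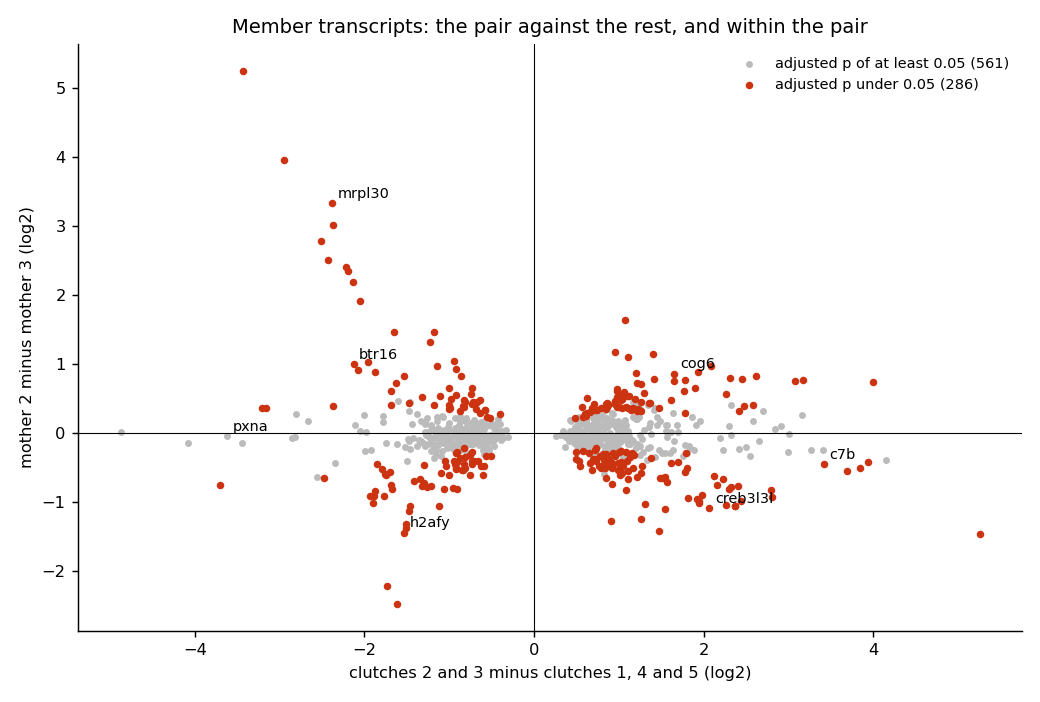
For each of the 847 transcripts, the log2 difference of clutches 2 and 3 from clutches 1, 4 and 5 (horizontal) and the log2 difference of mother 2 from mother 3 (vertical), in red where the latter had a limma adjusted p under 0.05 (286) and in grey otherwise (561). The largest differences within the pair, such as mrpl30 at 3.33, belong to transcripts that were lower in both clutches and lowest in mother 3.

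The order among mothers 1, 4 and 5 is not fixed by the rule either. They differed among themselves in 283 of the 847 transcripts (33.4%), against 29.5% of all expressed transcripts (limma moderated F, adjusted p of 0.05). With the raw arrays centred on their median these counts were 129 of the 847 and 2701 of all. By pairs, mothers 1 and 4 differed in 23.7% of the 847 (23.4% of all), mothers 1 and 5 in 18.2% (10.9%) and mothers 4 and 5 in 20.1% (18.4%). The share was 24.9% among transcripts higher in clutches 2 and 3 and 44.1% among the lower ones. In the first set the median level of the 14 eggs was 7.45 and in the second 8.61. Among transcripts present in all 24 eggs the shares were 28.9% of 201 and 37.3% of 153, against 30.1% of all 16614 such transcripts. Of the 374 lower transcripts, 95 passed the expression filter only through eggs of mothers 1, 4 and 5.

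In 427 of the 847 transcripts (50.4%) no further clutches were apart in pairs, neither mother 2 from mother 3 nor any pair among mothers 1, 4 and 5. Clutch means could still differ where ranges overlapped, as in cyp2aa3, where mother 3 was 1.47-fold above mother 2 (limma adjusted p = 0.000757). In 192 the eggs of mothers 2 and 3 were apart from each other as well. Mother 5 was apart from mother 4 in 189 and from mother 1 in 141, and mother 1 was apart from mother 4 in 141. Shares over all expressed transcripts were not counted for these separations, so the counts describe the 847 only. The gene crcp showed a level in between, with 11.49 and 10.74 in mothers 2 and 3, 9.93 in mother 5, and 7.29 and 6.90 in mothers 1 and 4.

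The signal of the lower group was often near background. In 226 of the 847 transcripts no egg of the lower group was called present, and in 55 of these all eggs of the higher group were. Those 226 passed the expression filter only through the higher group. In 64 none of the lower eggs was marked well above background, while in 483 all were. All 24 eggs were called present in 354 of the 847, a smaller share than the 16614 of all 26630 expressed transcripts. For the other counts of this paragraph no share over all expressed transcripts was taken. Separations were found both where the lower group gave a measurable signal and where it did not.

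Which egg lay nearest to the other group varied. Over the 847 transcripts, egg 2 of mother 3 held the edge of its group most often (138 times) and egg 1 of mother 4 least often (29 times). Egg 5 of mother 3 held it 100 times. On the side of mothers 1, 4 and 5, egg 4 of mother 5 held the edge 112 times, 76 of them among transcripts higher in clutches 2 and 3. In the 131 higher transcripts that were called present in none of the 14 eggs, this egg had the highest signal 31 times, while the next, egg 1 of mother 1, had it 15 times. The 31 make up 23.7%, where an equal share per egg is 7.14%. These 131 passed the expression filter only through eggs of mothers 2 and 3, and this ranking rests on signals called absent. Without egg 2 of mother 3 the count of separate transcripts was 951, and without egg 4 of mother 5 it was 883. Under this rule, leaving out an egg can only add transcripts.

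**Figure D5:**
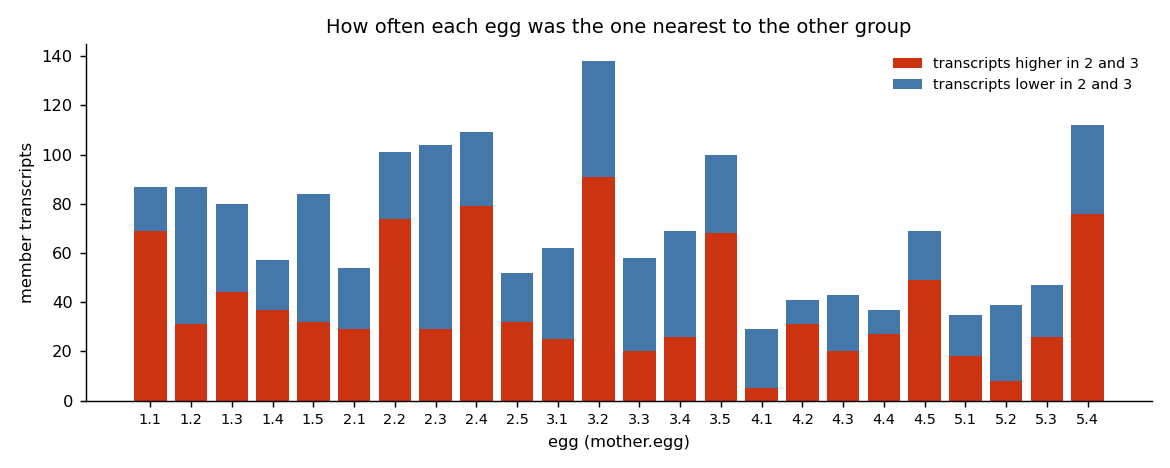
Number of the 847 transcripts in which each egg was the one of its group nearest to the other group, stacked by direction (red, higher in clutches 2 and 3, and blue, lower). Each transcript counts once for each group. Egg 2 of mother 3 (138) and egg 4 of mother 5 (112) are highest in their groups.

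Positions on Zv9 were given for 323 of the paired transcripts, on all 25 chromosomes. Chromosome 1 held the most (35, of which 20 were lower), followed by chromosome 8 (27) and chromosome 19 (23), while chromosome 14 held 2. Since positions come from tables chosen in part on these eggs, these shares are no independent measure, and chromosomes were not tested against each other. Within 100000 bases of each other lay 37 pairs, 20 of them in the same direction. No count of such pairs over all expressed transcripts is given here.

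On chromosome 1, hadh (chr1:49265846-49275216), cyp2u1 (chr1:49279576-49288214) and sgms2 (chr1:49289826-49306817) followed each other and were all lower, by 1.32, 0.60 and 1.44 on the log2 scale. Also on chromosome 1, gemin8, cbsa, hsf2bp and zgc:56306 between 28254436 and 28424462 were all lower, with differences of -0.74, -0.84, -0.72 and -1.02. For hsf2bp none of the 10 eggs of mothers 2 and 3 was well above background, and the other clutches were at least 1.46-fold higher. Neighbours of opposite sign occurred as well, such as tuba1c and tuba1b, 19383 bases apart on chromosome 23, and tubd1 and rps6kb1b, 864 bases apart on chromosome 15. Neighbours of equal and of opposite sign were thus both present.

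For 18 of the paired genes the tables name a second expressed probe, 22 probes in all. In 21 of these the difference had the same sign as in the first probe, and 12 were separate in the same direction. Of the DNA polymerase delta gene pold2, for which 3 further probes were expressed, all were separate and higher, by 0.88, 0.91 and 0.96 against 0.84 in the first. The exception was msto1, whose first probe was lower by 0.64 while the second was separate and higher by 2.19. Another 16 second probes were not called expressed, and they gave no measure. Among them were the further probes of tfap2a and mrpl30, which lay near background in both groups, so the values of these genes rest on 1 probe each.

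The number of separate transcripts depended on how the arrays were scaled. Scaling the background-subtracted signal to its 75th percentile gave 873, normexp background correction 842, the Cy3 over Cy5 ratio after loess 485, and centring of the raw arrays on their median 115, of which 81 were higher and 34 lower. Under all 4 of these, 93 of the 847 were still apart, 70 higher and 23 lower, and 72 of them had a gap of at least 0.5 on the deposited scale. Of the 66 named probes, 57, 66, 53 and 16 remained apart in this order. With median centring the groups still did not overlap in c7b (gap of 1.45) and rnaset2 (0.11), while the ranges of gmnn overlapped by 0.51 (gap of -0.51). The difference between the groups kept its sign for each named probe under every alternative. The rule chose these probes by this difference in the same eggs, so the agreement was largely fixed beforehand and is no separate test.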

How the data were processed

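RNA of 24 single eggs of 5 mothers was measured on 24 arrays (180822 spots, 88754 in the design set used). The authors' Feature Extraction 10.7.3.1 output holds each spot's median pixel intensity and a deposited intensity after background subtraction and dye normalization. The deposited value table holds log2 values, which the authors quantile normalized from the median Cy3 intensities. These log2 values were used as deposited, without background subtraction, so differences of dim transcripts are compressed.

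Transcripts were called expressed by a rule rebuilt from the description in the study's methods, so the set can differ from the one the authors used. The log2 variance was split at -3.67, and a probability over 0.95 on at least 4 arrays gave 26630 expressed transcripts (30.0%). Mothers were compared with limma 3.58.1 in R 4.3.3 (lmFit, eBayes, 1 mean per mother, Benjamini-Hochberg at 0.05 over all expressed transcripts). Tables were made with pandas 2.3.3 on Python 3.11.15 and plots with matplotlib 3.10.9. The limma fit and the range rule were tried on simulated data with planted group shifts and no other differences between mothers. The expression call and the naming of genes were not simulated.

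The members, the gene lists and the tests were chosen with earlier results of these data known. Genes were named through the study's tables, used here only for the pairing of probes with genes and positions, which name 3659 of the expressed transcripts. Their columns of the authors' own comparisons were not used. Named are the 12 widest gaps in each direction among members with a symbol (1 probe per symbol, the brightest), up to 4 widest of each of the 17 lists, and any further probe of these genes. That gave 66 probes. Markers came from lists by cell type. Other genes in the text (families, neighbours, second probes and further list members) were chosen after their values were seen. The lists match symbols by spelling.

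The alternatives were other normalizations and filters, the Cy3 over Cy5 ratio, gap limits, slide, array position, egg number and mother as blocks, array weights, other adjustments, and each egg left out in turn. Arrays give no counts, and their number limits the precision. Sequences were not analysed here.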

Additional observations from a re-analysis of the deposited data

Results flagged for a closer look

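Over the 66 named probes and 5 clutches, 330 groups of 4 or 5 eggs were examined for an egg far from the others of its clutch, and 25 (7.58%) held one by Dixon's criterion, which chance alone passes in about 1 in 20 groups. The 25 lay in 17 eggs. Egg 4 of mother 5 held 4 of them and no other egg held more than 2. In the clutch of mother 5, egg 4 lay above the rest in c7b (7.20 against 6.52 in the nearest egg, and so for each pair of values), slc5a5 (6.86 against 6.68), cdk5 (6.65 against 6.21) and uqcrq (12.76 against 12.56). Of the 4 eggs of this clutch, 1 was well above background in c7b, 1 in cdk5, 3 in slc5a5 and all in uqcrq. There, egg 1 lay above the rest in dusp22a (8.83 against 8.61). There, egg 3 lay above the rest in mettl9 (10.45 against 10.25). There, egg 2 lay below the rest in eri1 (10.14 against 10.35).

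In the clutch of mother 1, egg 2 lay below the rest in creb3l3l (6.67 against 6.96). There, egg 1 lay below the rest in parn (14.35 against 14.56). There, egg 4 lay above the rest in slc1a3a (9.63 against 9.40). There, egg 3 lay below the rest in dusp22a (8.57 against 8.80). There, egg 5 lay above the rest in dbnlb (8.68 against 8.38). There, egg 3 lay above the rest in rbms3 (8.44 against 7.94). In the clutch of mother 2, egg 3 lay below the rest in pfn1 (12.49 against 13.31). There, egg 2 lay below the rest in slc25a25a (14.25 against 14.32). There, egg 2 lay above the rest in slc1a3a (6.71 against 6.39, with no egg of this clutch well above background). There, egg 3 lay above the rest in mrpl30 (12.28 against 11.86). In the clutch of mother 3, egg 3 lay above the rest in rnf168 (12.64 against 12.25). There, egg 2 lay above the rest in brwd1 (7.83 against 7.66). There, egg 5 lay below the rest in sgk1 (10.68 against 11.13). There, egg 2 lay below the rest in hadh (10.79 against 11.10). There, egg 5 lay above the rest in rbms3 (7.32 against 7.11). In the clutch of mother 4, egg 4 lay below the rest in parn (13.09 against 13.40). There, egg 3 lay below the rest in smarca5 (10.93 against 11.21). There, egg 2 lay above the rest in tuba1b (12.76 against 12.53).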

How the results depend on the processing

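The count of 847 (473 higher, 374 lower) became 115 (81 and 34) with the raw arrays centred on the median, 485 as the Cy3 over Cy5 ratio, 354 among transcripts present on all 24 arrays, 8519 when only the clutch means had to be apart, 162 with a gap of at least 0.5 and 56 with at least 1. Leaving out 1 egg gave 856 to 951, where the count could not fall, since the rule on ranges only loosens with fewer eggs.

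Clutches 2 and 3 against the rest (11275 calls) gave 1108 with median centring and 6743 among transcripts present on all arrays. For median centring, the ratio and presence on all arrays in this order, mother 2 against mother 3 (7922) gave 561, 4963 and 4656, and the 847 within that comparison (286) gave 23, 190 and 110. Among mothers 1, 4 and 5 the count of 7865 became 2701, 4467 and 5006, and that of the 847 (283) became 129, 180 and 113. Mother 2 was higher in 3624 and lower in 4298 of the 7922, but in 125 and 436 under median centring. The first comparison gave 2947 with mother as a random block and 3160 with Bonferroni adjustment, and array weights raised the count among mothers 1, 4 and 5 to 12698. The single Cy5 call fell to 0 with median centring and 0 with slide as a block (limma, 140 and 257 at an unadjusted p under 0.05). Leaving out 1 egg gave 10550 to 11500, 6561 to 9856 and 6818 to 9369 for the 3 comparisons and, within the 847, 241 to 315 for mother 2 against mother 3 and 250 to 296 among mothers 1, 4 and 5. Presence on all arrays leaves fewer transcripts to test. Median centring moves all values of an array by the same amount. Before it, the mean raw log2 Cy3 signal over the expressed transcripts ran from 7.64 to 9.80 between eggs. Of all probes, 30.0% were called expressed. After centring, the ranges of hadh and fbxl2 overlapped (gaps of -2.14 and -2.92), while 16 of the 66 named probes stayed apart. Whether the spread in raw signal lowered these counts was not tested. For the other settings the cause was not tested either.

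Under median centring the difference of mother 2 from mother 3 changed sign in olfm1b (-0.18), rnf168 (-0.32), pfn1 (-0.01), parn (-0.14), sgk1 (-0.24) and sco2 (-0.11). Eggs of the same number share only that number, with a median correlation of 0.0628 between mothers. The fit with egg number as a block gave 11032, 7658 and 7564 calls, and 279 and 272 within the 847. Dim transcripts limit the comparison, since a group near background has only a bound.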
